A study of Mus musculus with 4 samples.

Results

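The 40 genes described here encode the machinery with which a plasma cell folds and secretes antibody: a plasma cell surface marker, the transcription factors of the unfolded protein response, and the chaperones, disulfide isomerases, degradation factors, translocon subunits and cargo receptor of the endoplasmic reticulum (ER). They were taken from the 38087 gene rows of the deposited read counts by a fixed list of names. Of the 40, 39 were found by gene symbol and Mzb1 by its Ensembl identifier, because the table lists it under an older symbol. All 40 had at least 10 reads in all and all 40 were tested. Proteins enter the ER through the Sec61 channel, lose their signal peptide, receive sugars and disulfide bonds, and leave for the Golgi in coated vesicles, while chains that do not fold are sent back to the cytosol for degradation. When unfolded chains accumulate, the sensors IRE1, ATF6 and PERK raise the output of this machinery, and the IRE1 branch, through XBP1, builds the large ER of antibody-secreting cells. Acinar cells of salivary glands use the same machinery to export saliva proteins, so its level in a mixed tissue is not a property of plasma cells alone.

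RNA was compared between 2 samples labelled Becn1-M-KO (here KO), from C57BL/6 mice with a myeloid-specific knockout of Becn1, and 2 samples labelled WT, from C57BL/6 wild type mice, all at postnatal week 20. The labels give cervical lymph node as the tissue of all 4 samples, and the series text calls the KO samples B cell lymphomas and the WT samples controls from nodes. The effects of the genotype and of the tumour therefore cannot be told apart. The labels name neither the Cre line nor separate animals within a group, so the spread between the samples of a group may be technical. The libraries were made from total RNA after removal of ribosomal RNA and read on an Ion Torrent machine.

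Several of the 40 genes carry in their promoters the ER stress response element (ERSE), the letters CCAAT and CCACG separated by 9 bases, which cleaved ATF6 and XBP1 bind together with the factor NF-Y. The element was first described in promoters of ER chaperones, so its presence among these genes is background and not a finding. In RefSeq promoter windows of build GRCm38.p6, from 250 bases before to 50 after the annotated start, searched on both strands, 32 of the 40 genes had a window and 8 of these 32 held the element, against 0.137% of 27025 genes. The sites are shown because they are the sequence that these genes share. Each is read 5′ to 3′ in the direction of the element, with CCAAT and CCACG in capitals. Distances are to the edge of the site farthest from the start. That edge is the CCACG end for Calr, Creld2, Derl3 and the second Hsp90b1 site.
Hspa5, site starting 65 bases before the start: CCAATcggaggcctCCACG
Hsp90b1, first site, 212 bases before the start: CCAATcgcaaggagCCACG
Hsp90b1, second site, 107 bases before the start: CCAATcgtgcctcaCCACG
Calr, 162 bases before the start: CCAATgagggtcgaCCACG
Canx, 145 bases before the start: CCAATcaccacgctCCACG
Creld2, 126 bases before the start: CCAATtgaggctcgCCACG
Pdia6, 98 bases before the start: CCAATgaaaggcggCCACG
Derl3, 156 bases before the start: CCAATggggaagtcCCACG
Dnajc3, 105 bases before the start: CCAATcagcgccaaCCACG

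The 250 bases before the start are printed for 5 of them, on the strand of the gene, with the letters of each element other than its spacer in capitals; an element that lies on the other strand reads CGTGG and then ATTGG. Hspa5 and Hsp90b1 encode ER chaperones and Creld2 a stress-induced ER protein. Derl3 was high in 1 WT library and low in the other, and Dnajc3 was lower in KO than in either WT library although it holds the same element.
Hspa5, chr2:34771840-34772089, plus strand: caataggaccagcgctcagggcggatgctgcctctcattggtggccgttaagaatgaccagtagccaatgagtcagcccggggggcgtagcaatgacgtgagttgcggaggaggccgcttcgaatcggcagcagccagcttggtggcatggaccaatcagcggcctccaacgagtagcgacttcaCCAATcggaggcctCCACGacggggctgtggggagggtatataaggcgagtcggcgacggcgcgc
Hsp90b1, chr10:86705445-86705694, minus strand: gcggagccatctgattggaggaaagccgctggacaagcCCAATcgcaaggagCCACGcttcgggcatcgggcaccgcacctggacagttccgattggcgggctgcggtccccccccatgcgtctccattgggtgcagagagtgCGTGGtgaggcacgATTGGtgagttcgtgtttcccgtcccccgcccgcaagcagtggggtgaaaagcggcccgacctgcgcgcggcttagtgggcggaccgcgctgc
Creld2, chr15:88819396-88819645, plus strand: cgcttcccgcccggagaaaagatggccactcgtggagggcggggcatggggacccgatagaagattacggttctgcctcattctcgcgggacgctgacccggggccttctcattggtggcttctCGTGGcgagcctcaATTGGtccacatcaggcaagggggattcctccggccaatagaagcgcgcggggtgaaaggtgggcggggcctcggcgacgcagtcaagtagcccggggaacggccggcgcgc
Derl3, chr10:75893148-75893397, plus strand: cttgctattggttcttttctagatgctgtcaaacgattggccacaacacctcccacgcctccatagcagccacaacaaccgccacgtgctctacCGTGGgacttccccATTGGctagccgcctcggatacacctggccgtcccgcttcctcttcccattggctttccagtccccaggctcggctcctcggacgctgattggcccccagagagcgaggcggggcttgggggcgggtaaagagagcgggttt
Dnajc3, chr14:118937682-118937931, plus strand: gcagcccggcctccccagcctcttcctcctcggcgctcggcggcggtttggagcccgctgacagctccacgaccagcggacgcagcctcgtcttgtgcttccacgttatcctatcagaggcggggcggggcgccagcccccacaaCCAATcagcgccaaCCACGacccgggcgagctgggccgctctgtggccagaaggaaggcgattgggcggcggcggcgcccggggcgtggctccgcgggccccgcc

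The libraries held 15604247 and 20067004 reads in KO and 16141605 and 17874699 in WT. WT replicate 1 stood apart: 32% of its reads came from Spt1, a gene for a protein of saliva, and the 10 B cell markers summed to 22.6 CPM (reads scaled to a common library size) of the library total there, against 1897 CPM in WT replicate 2. The WT libraries correlated across genes at 0.866 and the KO libraries at 0.992 (log2 CPM, 20695 genes, which are not independent). Salivary acinar markers were few in KO but unequal, at 152 and 4947 CPM of the library total. They summed to 539900 CPM in WT replicate 1 and 200400 CPM in WT replicate 2, so WT replicate 2 was rich in them too. Becn1 stood at 49.5 and 53.3 CPM in KO and 54.8 and 63.4 CPM in WT (log2 fold change −0.20, SE 0.21, adjusted p = 0.557 by edgeR's quasi-likelihood test with Benjamini-Hochberg adjustment), and reads from whole tissue do not check a deletion in myeloid cells. Xist had 3 and 34 reads in KO against 2088 and 5314 in WT, with Y-linked genes the other way, so sex went with genotype.

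Because WT replicate 1 stood apart, each gene was compared with both WT libraries together, in the test of all 4 libraries, and with each WT library alone. Levels are given as CPM scaled with TMM factors, which set each library's total so that the bulk of genes match. The factor of WT replicate 1 was 0.513, against 1.18 to 1.29 in the others, and the scaling therefore raises its levels relative to theirs. A gene was called where its adjusted p from that edgeR test was under 0.05. In a comparison with a single WT library the error comes from the KO libraries alone and the lone WT library is assumed to vary like them, so a call there sets that library apart from KO and says nothing of the spread among WT samples. In these bulk samples more cells of a type and more RNA per cell cannot be told apart.

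Within KO the 40 genes were nearly constant. The replicates differed by a median of 1.05-fold and by at most 1.24-fold, for Calr, and 39 of the 40 were within 1.2-fold. The WT libraries differed by a median of 1.48-fold and by up to 25.6-fold, for Mzb1, and 16 of the 40 were within 1.2-fold. Both KO values lay above both WT values for 13 genes and below both for 14, where 34.3% and 33.3% of all tested genes did so, and for 9 genes both KO values lay between the WT values, against 16.7% of all tested genes. The counts above both and below both are near that background. The 40 genes together took 0.8% and 0.794% of the KO reads, 0.491% of those of WT replicate 1 and 0.685% of those of WT replicate 2.

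**Figure D1:**
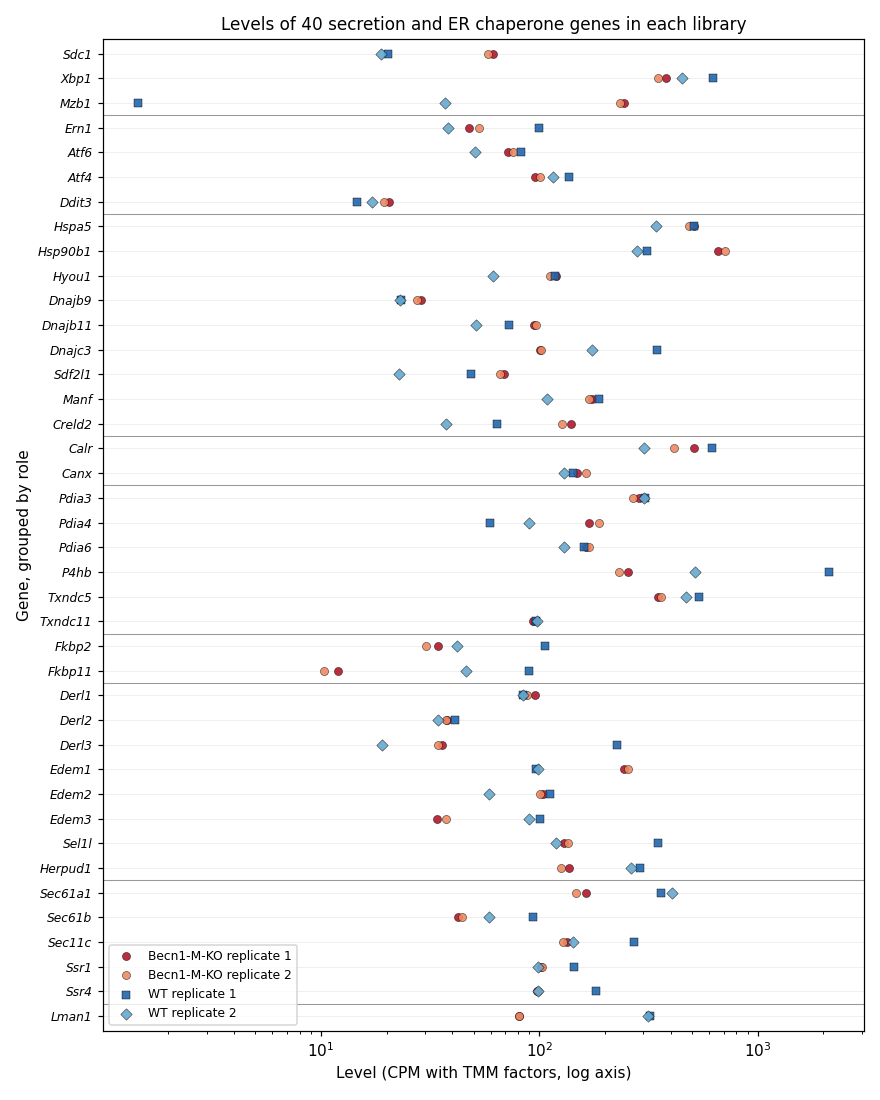
Level of each of the 40 genes in each library (CPM with TMM factors, log axis), with KO replicates as circles, WT replicate 1 as squares and WT replicate 2 as diamonds, and lines between groups of genes by role. The KO circles nearly coincide for each gene, and WT replicate 1 is the highest library for 23 of the 40 genes and WT replicate 2 the lowest for 19, whereas by CPM of the library total WT replicate 1 is the highest for 4 and the lowest for 31, and WT replicate 2 the lowest for 3.

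With all 4 libraries, 1 of the 40 genes rose and 1 fell. The rise was Sdc1 (1.04% of all tested genes rose) and the fall Lman1 (2.18% of all tested genes fell). The median log2 fold change of the 40 was −0.019, beside 0.010 over all tested genes. Against WT replicate 2 alone, 17 rose and 9 fell, or 42.5% and 22.5% of the 40, where 20.9% and 22.8% of all tested genes did so, and the median was 0.19, beside 0.004 over all genes. Against WT replicate 1 alone, 9 rose and 18 fell, or 22.5% and 45%, where 32.3% and 32.5% of all tested genes did so, and the median was −0.16, beside 0.056 over all genes. The 2 comparisons share the KO libraries. Higher in KO against each of them were 8 genes, namely Sdc1, Mzb1, Hsp90b1, Dnajb11, Sdf2l1, Creld2, Pdia4 and Edem1. Lower against each were 9, namely Dnajc3, P4hb, Fkbp2, Fkbp11, Edem3, Herpud1, Sec61a1, Sec61b and Lman1. These are 20% and 22.5% of the 40, near the 17.4% and 18.4% of all genes tested in both comparisons. Ern1 and Derl3 were higher against WT replicate 2 and lower against WT replicate 1, and 6 genes were called against neither (Dnajb9, Canx, Pdia3, Txndc11, Derl1 and Derl2).

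Of the 3 plasma cell genes, Sdc1 and Mzb1 were higher in KO than in either WT library and Xbp1 was not. Sdc1, on chromosome 12 from 8771323 to 8793715 (mm10), encodes syndecan-1 (CD138), the surface proteoglycan by which plasma cells are recognised and which epithelia also carry. It stood at 61.2 and 58.2 CPM in KO and 20.3 and 18.9 CPM in WT, so the KO mean was 3.15 times WT replicate 2 and 2.94 times WT replicate 1. The means were 59.7 ± 2.15 CPM in KO and 19.6 ± 0.957 CPM in WT (SD, n = 2 each), giving a log2 fold change of 1.61 with an SE of 0.19 (adjusted p = 0.0478). The small WT spread depends on the scaling. By CPM of the library total Sdc1 stood at 10.4 in WT replicate 1 and 22.2 in WT replicate 2. Mzb1, on chromosome 18 from 35647266 to 35649367, encodes a GRP94 cochaperone of B cells and plasma cells that helps assemble and secrete IgM. It had 4869 and 6073 reads in KO, 12 in WT replicate 1 and 778 in WT replicate 2, or 245 and 234 CPM in KO and 1.45 and 37.1 CPM in WT. The KO libraries lay above both WT libraries, the WT libraries differed 25.6-fold, and the test of all 4 did not call it (log2 fold change 3.62, SE 1.53, adjusted p = 0.229). Against WT replicate 2 it rose by 2.70 (SE 0.15, adjusted p = 3.02e-08), and against WT replicate 1 by 7.35. Xbp1 encodes the transcription factor that IRE1 activates by splicing its mRNA, a step that counts per gene do not show. It stood at 379 and 352 CPM in KO and 624 and 451 CPM in WT. Both KO values were below both WT values, and it fell against WT replicate 1 (−0.79, adjusted p = 0.006) while the difference from WT replicate 2 did not pass the test (−0.30, SE 0.17, adjusted p = 0.175).

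The 4 sensors and stress transcription factors had a median log2 fold change of 0.318 against WT replicate 2, beside 0.004 over all genes. Against WT replicate 1 it was −0.332, beside 0.056 over all genes. By library totals their values against WT replicate 1 ran from 0.34 for Ern1 to 1.77 for Ddit3, where the median of all genes was 1.39. Ern1, which encodes IRE1 alpha, stood at 47.6 and 53.1 CPM in KO, 99.5 CPM in WT replicate 1 and 38.2 CPM in WT replicate 2. Both KO libraries lay between the WT libraries, with log2 fold changes of 0.41 over WT replicate 2 and −0.996 over WT replicate 1. Atf6, the membrane-bound factor cut in the Golgi under stress, stood at 71.6 and 75.9 CPM in KO and 82.6 and 50.6 CPM in WT, also between the WT libraries, and rose against WT replicate 2 (0.55, SE 0.10, adjusted p = 0.000848). Atf4, the factor translated when PERK or its sister kinases phosphorylate eIF2 alpha, stood at 95.6 and 101 CPM in KO and 137 and 115 CPM in WT. It fell against WT replicate 1 (−0.49) and not against WT replicate 2 (−0.22, adjusted p = 0.119). Ddit3, which encodes the pro-apoptotic factor CHOP, had 20.5 and 19.4 CPM in KO and 14.6 and 17.1 CPM in WT. It rose against WT replicate 1 (0.43, adjusted p = 0.0298) and its difference from WT replicate 2 did not pass the test (0.23, adjusted p = 0.188). Reads in the 68 bases where it overlaps Mars, on the other strand, cannot be assigned to one of the pair, and Mars held 2.89 times its reads.

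Of BiP, GRP94 and their partners, 7 of 9 rose and 1 fell against WT replicate 2, where 20.9% and 22.8% of all tested genes did. Against WT replicate 1 their median log2 fold change was 0.255, beside 0.056 over all genes. By library totals Dnajc3 was lower (−0.66 against WT replicate 2 and −0.45 against WT replicate 1). The other genes of this group were higher on that scale, where the median of all genes was itself 0.13 and 1.39. Hsp90b1, on chromosome 10 from 86690209 to 86705509, encodes GRP94, the ER member of the HSP90 family. It stood at 655 and 709 CPM in KO and 311 and 279 CPM in WT, so the KO mean was 2.45 times WT replicate 2 and 2.19 times WT replicate 1. It rose by 1.30 (SE 0.19, adjusted p = 0.000179) against WT replicate 2 and by 1.12 (SE 0.28) against WT replicate 1, and was not called with all 4 libraries (1.21, SE 0.33, adjusted p = 0.123). A long noncoding RNA gene on the opposite strand overlaps 4598 of its bases and held 0.591 times its reads, and whether the counting used strand is not given in the sources used here, so the reads of this pair cannot be told apart. Hspa5, which encodes BiP, the HSP70 chaperone that binds nascent chains and holds the stress sensors inactive, stood at 514 and 484 CPM in KO, 509 CPM in WT replicate 1 and 343 CPM in WT replicate 2. Its KO values were above WT replicate 2, by a rise that passed the test, and were not told apart from WT replicate 1 (−0.044, SE 0.24, adjusted p = 0.887). The rise was 0.54 (SE 0.18, adjusted p = 0.0265).

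Among the smaller partners, Creld2, a stress-induced ER protein with disulfide isomerase-like activity, had 140 and 127 CPM in KO and 63.9 and 37.4 CPM in WT. KO was above both WT libraries, by 1.84 (SE 0.12) against WT replicate 2 and 1.04 (SE 0.12) against WT replicate 1 (adjusted p = 0.111 with all 4 libraries). Sdf2l1, which works in a chaperone complex with BiP, had 68.6 and 66.1 CPM in KO and 48.7 and 22.7 CPM in WT, again above both, by 1.57 against WT replicate 2 and 0.45 against WT replicate 1. Dnajb11, the soluble J-domain cochaperone ERdj3, had 94.3 and 96.3 CPM in KO and 73.1 and 51.1 CPM in WT, by the same order. Hyou1, an HSP70-like nucleotide exchange factor of BiP, had 119 and 112 CPM in KO, near the 118 CPM of WT replicate 1 (−0.047) and above the 61.4 CPM of WT replicate 2 (0.92). Manf, a secreted ER stress protein, had 175 and 168 CPM in KO, 188 CPM in WT replicate 1 (−0.15) and 109 CPM in WT replicate 2 (0.66). Both rose against WT replicate 2 and were not called against WT replicate 1. Dnajb9, the J-domain cochaperone that recruits BiP to IRE1, had 28.7 and 27.6 CPM in KO and 23.3 and 23.1 CPM in WT. Its small excess in KO was not called in any of the 3 comparisons with TMM factors. By library totals the log2 fold change of Dnajb9 was 0.415 over WT replicate 2 and 1.59 over WT replicate 1. The median of all genes on that scale was 0.13 and 1.39. Dnajc3, which encodes the cochaperone p58IPK, went the other way. It had 101 and 102 CPM in KO, 345 CPM in WT replicate 1 and 175 CPM in WT replicate 2, and fell by 0.79 (SE 0.11) against WT replicate 2 and by 1.79 against WT replicate 1.

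The lectin chaperones hold glycoproteins by their trimmed sugars until they fold. By library totals Calr stood at 0.75 over WT replicate 2 and 0.91 over WT replicate 1 on the log2 scale, and Canx at 0.40 and 1.45. The median of all genes there was 0.13 and 1.39. Calr, which encodes the soluble calreticulin, had 513 and 412 CPM in KO, the widest KO replicate difference of the 40 genes, and 616 and 301 CPM in WT. Its KO values lay between the WT libraries and rose against WT replicate 2 (0.62, SE 0.19, adjusted p = 0.0201). Canx, which encodes the membrane-bound calnexin, had 149 and 163 CPM in KO and 143 and 130 CPM in WT. It was called in no comparison with TMM factors (log2 fold change 0.20, SE 0.24, adjusted p = 0.629 with all 4 libraries).

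The disulfide isomerases and thioredoxin-like proteins, which form and rearrange disulfide bonds, diverged from one another. Pdia4, which encodes ERp72, had 169 and 188 CPM in KO and 59.3 and 89.4 CPM in WT. It was above both WT libraries, by 1.01 (SE 0.13) against WT replicate 2 and 1.58 (SE 0.13) against WT replicate 1 (adjusted p = 0.110 with all 4 libraries). P4hb, the founding disulfide isomerase and also the beta subunit of collagen prolyl hydroxylase, had 256 and 232 CPM in KO, 2122 CPM in WT replicate 1 and 519 CPM in WT replicate 2. It was below both, by 1.09 (SE 0.16) against WT replicate 2 and 3.14 (SE 0.35) against WT replicate 1, with an adjusted p of 0.168 over all 4 libraries. P4hb held 22.2% of all reads of the 40 genes in WT replicate 1 and 8.88% in WT replicate 2, against 4.07% and 3.78% in KO. Pdia3, which encodes the glycoprotein isomerase ERp57, had 286 and 270 CPM in KO and 304 and 303 CPM in WT. It was called in no comparison with TMM factors (log2 fold change −0.13, SE 0.28, with all 4 libraries). Pdia6 had 164 and 169 CPM in KO and 160 and 130 CPM in WT and rose against WT replicate 2 (0.36, SE 0.12, adjusted p = 0.0302). Txndc5, a thioredoxin-domain isomerase abundant in plasma cells, had 348 and 362 CPM in KO and 539 and 468 CPM in WT, below both, and fell against WT replicate 1 only (−0.62, SE 0.20, adjusted p = 0.0155). Txndc11, a membrane-bound member of the family, did not separate the groups, at 93.2 and 96.7 CPM in KO and 96.5 and 97.8 CPM in WT; it overlaps Snn on the other strand by 73 bases, and Snn held 1.46 times its reads.

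Both prolyl isomerases, which turn peptide bonds at proline, fell against each WT library, except that by library totals Fkbp2 was not called against WT replicate 2 (−0.25, adjusted p = 0.0995). Fkbp11 had 12.0 and 10.3 CPM in KO, 89.5 CPM in WT replicate 1 and 46.0 CPM in WT replicate 2. KO was several-fold below both, by 2.04 (SE 0.13, adjusted p = 1.21e-07) against WT replicate 2 and 3.02 (SE 0.13) against WT replicate 1. The test of all 4 libraries gave −2.60 (SE 0.41, adjusted p = 0.0614). Fkbp11 is abundant in secretory cells of several kinds, plasma cells among them, and it was low in the same KO libraries in which Sdc1 and Mzb1 were high. Fkbp2 had 34.2 and 30.4 CPM in KO and 106 and 42.0 CPM in WT, a fall of 0.38 (SE 0.12, adjusted p = 0.0211) against WT replicate 2.

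ER-associated degradation extracts misfolded chains and hands them to the proteasome. Its 8 genes had a median log2 fold change of 0.148 against WT replicate 2, beside 0.004 over all genes. Against WT replicate 1 it was −0.653, beside 0.056 over all genes. By library totals the values against WT replicate 1 ran from −1.37 for Derl3 to 2.70 for Edem1, where the median of all genes was 1.39. The EDEM mannosidase-like proteins, which mark glycoproteins for disposal, parted. Edem1, on chromosome 6 from 108828641 to 108859356, had 245 and 256 CPM in KO and 96.5 and 98.8 CPM in WT. The groups did not overlap (1.36, SE 0.25), and the adjusted p of 0.0721 with all 4 libraries missed the threshold; against WT replicate 2 it rose by 1.35 (SE 0.14, adjusted p = 1.09e-05). Edem3 had 33.9 and 37.5 CPM in KO and 101 and 89.6 CPM in WT. The groups did not overlap here either, in the other direction (−1.42, SE 0.22, adjusted p = 0.060), and it fell by 1.32 against WT replicate 2. Edem2 had 104 and 100 CPM in KO and 112 and 59.1 CPM in WT and rose against WT replicate 2 (0.79, SE 0.11).

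Of the derlins, membrane proteins of the retrotranslocation channel, Derl3 was called with TMM factors and Derl1 and Derl2 were not. Derl1 stood at 95.7 and 87.8 CPM in KO and 83.9 and 84.1 CPM in WT, and Derl2 at 38 and 37.5 CPM in KO and 41.3 and 34.4 CPM in WT. Derl3, the stress-induced derlin, stood at 35.9 and 34.3 CPM in KO, 227 CPM in WT replicate 1 and 19.0 CPM in WT replicate 2. The KO libraries lay between the WT libraries, at 0.89 (SE 0.12) over WT replicate 2 and −2.71 (SE 0.10) over WT replicate 1 on the log2 scale. Sel1l, the scaffold of the HRD1 ubiquitin ligase, had 130 and 135 CPM in KO, near the 119 CPM of WT replicate 2 (0.16, adjusted p = 0.291) and below the 349 CPM of WT replicate 1. Herpud1, a stress-induced membrane protein that organises that ligase complex, had 138 and 126 CPM in KO and 291 and 264 CPM in WT. It fell by 1 on the log2 scale (SE 0.13, adjusted p = 4.72e-05) against WT replicate 2 and by 1.16 against WT replicate 1 (adjusted p = 0.105 with all 4 libraries).

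At the entry of the ER stand 5 translocon, TRAP complex and signal peptidase genes. Their median log2 fold change was −0.12 against WT replicate 2, beside 0.004 over all genes. Against WT replicate 1 it was −1.06, beside 0.056 over all genes. By library totals their values against WT replicate 1 ran from 0.11 for Sec61a1 to 0.83 for Ssr1, where the median of all genes was 1.39. Sec61a1, the pore-forming subunit of the translocon, had 164 and 148 CPM in KO and 361 and 405 CPM in WT. The KO mean was 0.385 times WT replicate 2 and 0.432 times WT replicate 1, with a fall of 1.37 (SE 0.14, adjusted p = 8.82e-06) against WT replicate 2 and an adjusted p of 0.0899 with all 4 libraries. Sec61b, a small subunit of the same channel, had 42.6 and 44.4 CPM in KO and 93.4 and 58.8 CPM in WT, and fell by 0.43 (SE 0.10, adjusted p = 0.0041) against WT replicate 2. Sec11c, a catalytic subunit of signal peptidase, and Ssr1 and Ssr4, subunits of the translocon-associated TRAP complex, were not called against WT replicate 2 (−0.12, 0.065 and −0.002) and fell against WT replicate 1 (−1.06, −0.51 and −0.90). Sec11c had 134 and 128 CPM in KO and 271 and 143 CPM in WT. Ssr1 had 101.5 and 103.4 CPM in KO and 144 and 98.3 CPM in WT, and Ssr4 had 97.3 and 99.0 CPM in KO and 181 and 98.7 CPM in WT. For all 3 genes WT replicate 1 alone stood apart, and its difference from KO turned with the scaling. Lman1, on chromosome 18 from 65980754 to 66022580, encodes ERGIC-53, the mannose-binding receptor that carries glycoproteins from the ER to the Golgi, known in people for the transport of coagulation factors. It had 81.1 and 80.8 CPM in KO and 320 and 314 CPM in WT. With TMM factors the replicates nearly coincided within each group. By CPM of the library total the WT libraries did not, at 164.4 in WT replicate 1 and 368.3 in WT replicate 2. The log2 fold change of −1.97 (SE 0.26) passed the test of all 4 libraries (adjusted p = 0.0495). With TMM factors the means were 81.0 ± 0.239 CPM in KO and 317 ± 4.53 CPM in WT (SD, n = 2 each), so the small WT spread depends on the scaling.

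**Figure D2:**
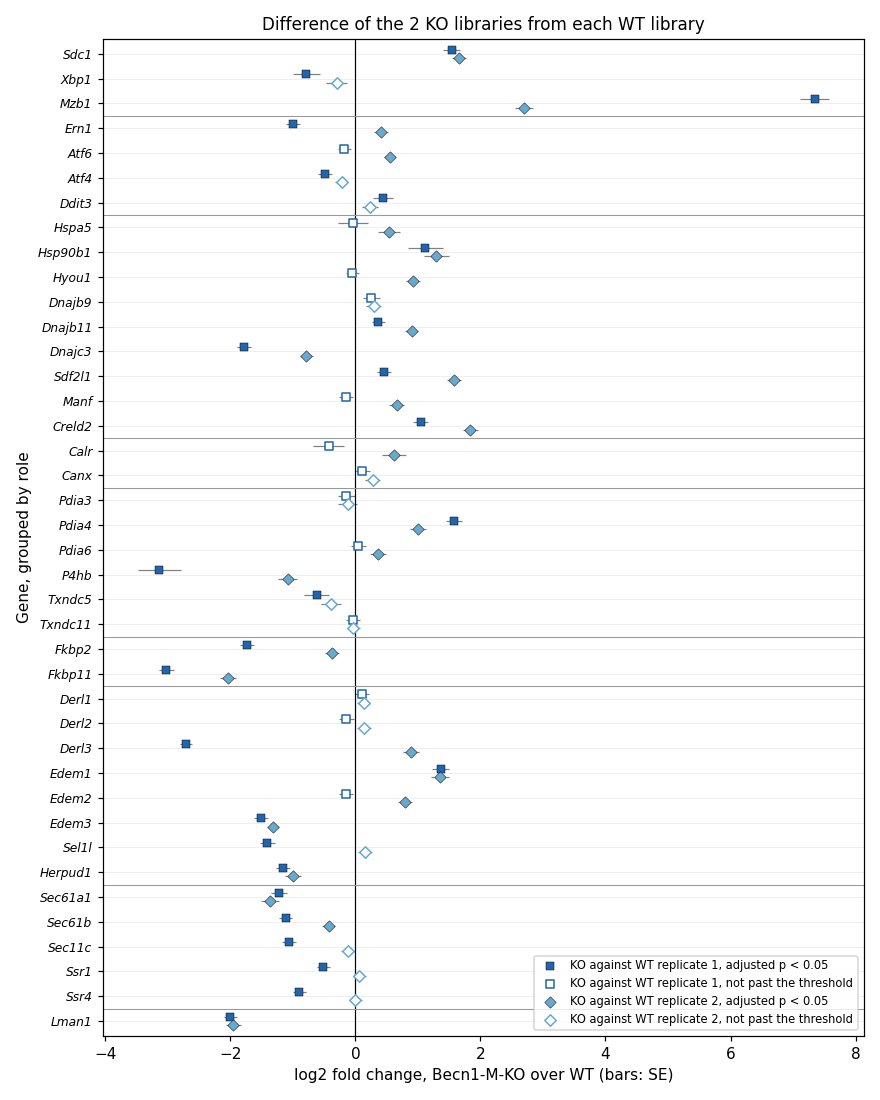
Log2 fold change of the KO libraries over WT replicate 1 (squares) and over WT replicate 2 (diamonds) for each of the 40 genes, with bars of 1 SE; filled symbols passed the test (adjusted p under 0.05) and open ones did not. Sdc1, Hsp90b1, Pdia4 and Edem1 lie right of 0 and Lman1, Edem3, Herpud1 and Sec61a1 left of 0 in both comparisons, while Ern1 and Derl3 lie on opposite sides.

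Some of these calls depended on the scaling. With TMM factors the median log2 fold change of all genes was 0.056 against WT replicate 1, 0.004 against WT replicate 2 and 0.010 with all 4 libraries. With library totals alone it was 1.394, 0.129 and 0.601 in the same order. On that scale KO lay above both WT libraries for 24 of the 40 genes and below both for 6, where 51% and 15% of all tested genes did so, and between them for 8, against 20.3% of all tested genes. Against WT replicate 2 the counts were 20 higher and 8 lower (26.9% and 19.3% of all tested genes), and against WT replicate 1 they were 29 and 6 (70.8% and 12.2%). Still lower against WT replicate 1 were Lman1 (−0.66), Dnajc3 (−0.45), P4hb (−1.80), Fkbp2 (−0.39), Fkbp11 (−1.68) and Derl3 (−1.37). Sec61a1, Herpud1 and Sec61b turned to 0.11, 0.18 and 0.22 and Edem3 and Sel1l moved to −0.17 and −0.069, and these 5 were not called, so their falls against WT replicate 1 rest on the scaling. For 7 genes the fall against WT replicate 1 became a rise by library totals, at 0.34 for Ern1, 0.55 for Xbp1, 0.85 for Atf4, 0.72 for Txndc5, 0.28 for Sec11c, 0.83 for Ssr1 and 0.44 for Ssr4. The 8 genes higher against each WT library were called higher on both scales (17.4% of all genes tested in both comparisons were). Of the 9 lower ones, Dnajc3, P4hb, Fkbp11 and Lman1 were called lower on both, or 10% of the 40 beside 9.99% of all genes.

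The summed level of the 40 genes was set beside the sums of marker lists, with no test; rises and falls among the 40 cancel in such a sum. By CPM of the library total they summed to 8003 and 7940 in KO, 4908 in WT replicate 1 and 6853 in WT replicate 2, so the KO mean was 1.16 times WT replicate 2 and 1.62 times WT replicate 1. Of 12 listed immunoglobulin constant region genes, 9 were found. They summed to 43430 and 41440 in KO, 105.4 in WT replicate 1 and 3196 in WT replicate 2, or 13.3 times WT replicate 2 in KO. Of the marker lists, 6 plasma cell markers outside the 40 (Prdm1, Irf4, Tnfrsf17, Slamf7, Igj and Pou2af1) summed to 2178 and 2330 in KO against 9.85 and 314.2 in WT, and 10 B cell markers to 2907 and 2838 in KO against 22.6 and 1897 in WT. Markers of salivary acinar cells ran the other way, with 15 genes summing to 152 and 4947 in KO and 539900 and 200400 in WT. Acinar Aqp5 and ductal Krt8 were at 0 reads in KO replicate 1 and had 41 and 23 reads in KO replicate 2. Against WT replicate 2 the median log2 fold change was −8.151 for acinar markers, 2.782 for immunoglobulin genes and 2.085 for plasma cell markers. It was 0.546 for B cell markers and −0.312 for T cell markers, beside 0.004 over all genes. Other cell types differed too. The 9 macrophage markers summed to 2671 and 2561 in KO against 162.7 and 1252 in WT. Their median against WT replicate 2 was 1.926, with Lyz2 at −2.033 and Mrc1 at −1.653. The 8 fibroblast markers summed to 983.2 and 794.5 in KO against 223.8 and 302 in WT. Their median against WT replicate 2 was 1.292, with Lum at −2.702. Neutrophil markers were lower in level, at 92.8 and 103.6 in KO against 4.21 and 32.9 in WT, while 10 T cell markers stood at 701.5 and 679.1 in KO against 6.07 and 824.7 in WT. Duct and other epithelial markers summed to 27.5 and 167.8 in KO against 16260 and 2588 in WT, with a median of −5.659 against WT replicate 2. Sums of gland markers were thus lower in KO than in WT, as were P4hb, Fkbp11, Lman1 and the other genes that fell. Sums of immunoglobulin, plasma cell, macrophage and fibroblast markers were higher in KO, as were Mzb1, Sdc1 and Hsp90b1. Within WT the acinar sum was higher in replicate 1. By CPM of the library total P4hb was too, at 1088 against 608.5 in replicate 2. Lman1 (164.4 against 368.3) and Fkbp11 (45.91 against 53.93) were lower in replicate 1. The part of these cell types in the results was not tested.

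**Figure D3:**
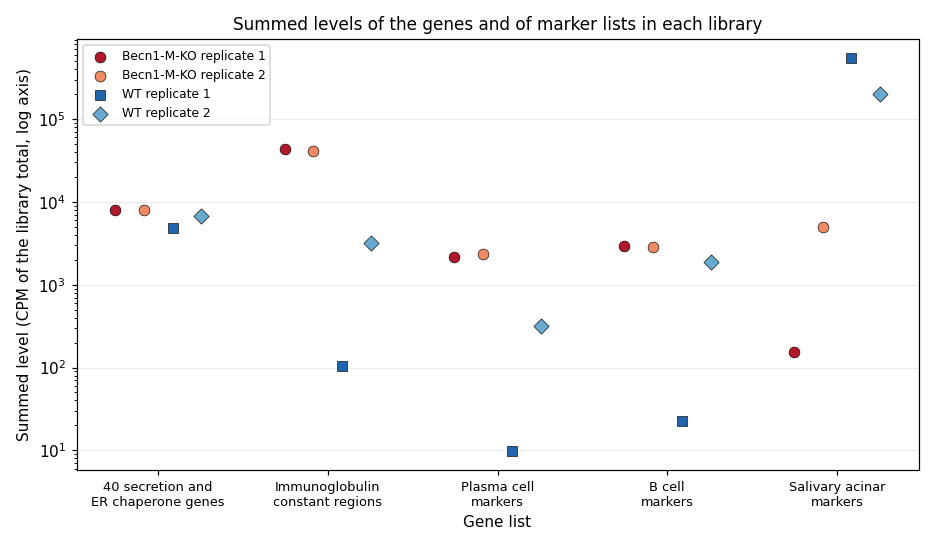
Summed level of the 40 genes and of 4 marker lists in each library (CPM of the library total, log axis), with KO libraries as circles and WT libraries as a square (replicate 1) and a diamond (replicate 2). The sums of the 40 genes lie between 4908 and 8003 CPM, while those of the immunoglobulin constant regions lie between 105.4 and 43430 CPM and those of the acinar markers between 152 and 539900 CPM.

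The genes with an ERSE can be read beside the sequences above. Against WT replicate 2 these 8 genes had a median log2 fold change of 0.58, with Dnajc3 at −0.79, beside 0.004 over all genes. The median was 0.03 for the 24 genes with a promoter window and no ERSE, and 0.34 for the 8 genes with no window. Against WT replicate 1 the medians of these 3 sets were 0.00, −0.50 and −0.16 in the same order, beside 0.056 over all genes. The letters CCACG alone were in windows of 27 of the 32 genes, and in those of 35.5% of all genes. No test was made of these medians and counts, and a match of letters is a description and not a binding site.

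Beyond the 40, 128 further genes of the pathway in 7 lists were counted in the same fits. With all 4 libraries 1 rose and 3 fell, or 0.781% and 2.34% of the 128 beside 1.04% and 2.18% of all tested genes. Against WT replicate 2, 30 rose and 48 fell, or 23.4% and 37.5%, beside 20.9% and 22.8% of all tested genes. Against WT replicate 1 the median log2 fold change of the 128 was −0.605, beside 0.056 over all genes. By library totals it was 0.734, beside 1.394 over all genes. Its sign there rests on the scaling, and on both scales it lay below that of all genes. The lists went different ways. The list of plasma cell identity shares genes with the plasma cell markers summed above, Prdm1 among them. Its values are therefore not independent of the result for those markers. The 14 genes of plasma cell identity had a median of 1.42 against WT replicate 2, beside 0.004 over all genes. Against WT replicate 1 the median was 4.352, beside 0.056 over all genes. Prdm1, which encodes BLIMP-1, the factor that commits B cells to the plasma cell fate, had 30.4 and 28.9 CPM in KO and 2.54 and 5.44 CPM in WT and rose by 2.45 against WT replicate 2. Slpi, a secreted protease inhibitor, rose by 4.06 and Eaf2, a partner of the elongation factor ELL, by 1.39. Bhlha15, which encodes MIST1, a factor of plasma cells and of acinar cells alike, went the other way against WT replicate 2. It stood at 14.7 and 16.7 CPM in KO and 520 and 87.6 CPM in WT. It is named as the exception in that comparison, after its values were seen.

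The 22 genes of ER exit and retrieval had a median log2 fold change of −0.85 against WT replicate 2, beside 0.004 over all genes. Against WT replicate 1 it was −1.17, beside 0.056 over all genes. Kdelr3, a receptor that returns escaped ER proteins from the Golgi, had 4.73 and 2.85 CPM in KO and 46.1 and 60.7 CPM in WT and fell in the test of all 4 libraries (−3.82, SE 0.38, adjusted p = 0.0444). Sec23b, an inner coat subunit of COPII vesicles, had 57.1 and 52.8 CPM in KO and 237 and 528 CPM in WT, a fall of 3.26 against WT replicate 2. Sec16a, which organises the sites where these vesicles form, fell by 1.59 there. By CPM of the library total this list summed to 2081 and 2047 in KO, 1902 in WT replicate 1 and 3755 in WT replicate 2. Its place against WT replicate 1, where the median of all genes was 1.394 by library totals, thus turned with the scaling.

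The 19 genes of oxidative folding had a median log2 fold change of −0.347 against WT replicate 2, beside 0.004 over all genes. Fkbp9 (14.7 and 11.3 CPM in KO against 66.2 and 57.4 CPM in WT) fell in the test of all 4 libraries (−2.25, SE 0.25, adjusted p = 0.0461). Pdia5, a further disulfide isomerase, fell by 2.95 and Sil1, a nucleotide exchange factor of BiP, by 1.69 against WT replicate 2. The 17 oligosaccharyltransferase and N-glycan processing genes had a median of −0.204 there, with Dpagt1, Alg5 and Dad1 at −1.005, −0.93 and −0.90. For the 20 genes of translocation and signal peptide handling the median was −0.233. Sec62 and Tram1, at −1.14 and −0.85, assist the channel, and Tram2, which rose by 1.59, is a relative of Tram1. ER-associated degradation, with 18 genes, had a median of 0.061, with Syvn1, the HRD1 ligase, at 0.78, Nploc4 at 0.47 and Vimp at −0.92. In the list of the unfolded protein response and integrated stress response, with 18 genes, the median was 0.262. Cebpb, a stress and inflammation transcription factor, had 52.9 and 53.2 CPM in KO and 14.4 and 10.3 CPM in WT and rose with all 4 libraries (2.11, SE 0.26, adjusted p = 0.0483). Asns, the asparagine synthetase gene induced by ATF4, had 7.75 and 6.17 CPM in KO and 341 and 126 CPM in WT and fell (−5.07, SE 0.66, adjusted p = 0.0495). Nfe2l2, which encodes the antioxidant factor NRF2, rose by 1.01 against WT replicate 2.

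**Figure D4:**
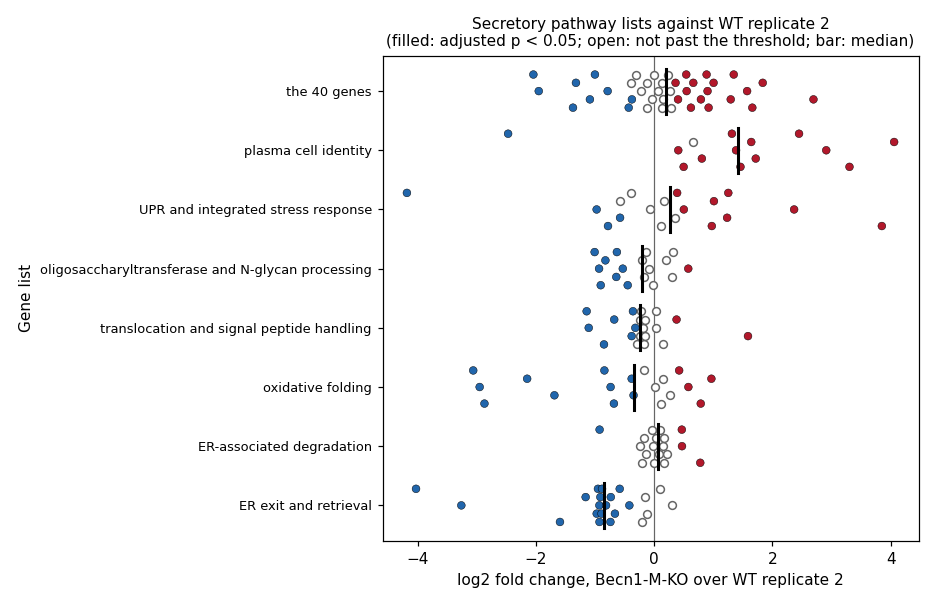
Log2 fold change of the KO libraries over WT replicate 2 for the 40 genes and 7 further lists of the pathway, 1 point per gene, filled where the adjusted p was under 0.05, with a bar at each list's median. Plasma cell identity has its median at 1.42 and ER exit and retrieval at −0.85, and the 40 genes spread over both sides with a median of 0.19.

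The authors' deposited table of comparisons, which lists 5511 genes with an unadjusted p up to 0.05, holds 13 of the 40 genes. Higher in KO in the authors' deposited table were 6 (Sdc1 at 1.64, Edem1 at 1.40, Creld2 at 1.45, Pdia4 at 1.28, Hsp90b1 at 1.23 and Dnajb9 at 0.275, log2 fold change). The 7 lower in the authors' deposited table were Fkbp11 at −2.51, Lman1 at −1.97, Edem3 at −1.40, Sec61a1 at −1.29, Herpud1 at −1.12, Txndc5 at −0.521 and Pdia3 at −0.115. Mzb1 was not among the 13.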

How the data were processed

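Whole-number read counts for each gene, with no scaling applied, are what the authors deposited; 8 further columns of per-sample values in the tables were not used. Per the file headers, a further deposited table holds the authors' own KO against WT comparison, as a log2 fold change with its p-value, which is not adjusted. The authors also deposited a table of log2 values per sample, which was not used. The submitters' processing notes name the build mm10 and DESeq2, with no role. Not given in the sources used here are the aligner, the counting tool, whether strand was used and what was done with reads that map to several places. In all 38087 rows the listed gene length is the full span from start to end, so intronic reads may be counted.

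Counts were tested over all genes with edgeR 4.0.16 in R 4.3.3 (TMM factors, quasi-likelihood test, Benjamini-Hochberg adjustment, threshold 0.05; low genes removed by filterByExpr at its minimum count, 10, and minimum total, 15), which left 20695 genes. Each SE was taken as the size of the log2 fold change over the square root of its F statistic. The comparison with 1 WT library is the same fit without the other, with 21844 genes against WT replicate 2 and 21327 against WT replicate 1. Depth was 15604247 to 20067004 reads, so the limit set by a count of 0 is 3 reads, between 0.149 and 0.192 CPM without TMM factors, for counting error only. Alternatives were other scalings and filters, DESeq2 1.42.0, limma-voom (limma 3.58.1), a replicate block and each library left out; the crossed block and the single-library comparisons by library totals were added after seeing the data.

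The 40 genes, the further lists and the markers were chosen with earlier results of these data known. Named were Becn1, all 40 genes and the 3 genes of each further list with the smallest p with all 4 libraries; others are named where a result turns on them. Coordinates are those of the deposited table (mm10); promoter sequences are from RefSeq (GRCm38.p6), matched by symbol.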

Additional observations from a re-analysis of the deposited data

How the results depend on the processing

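With all 4 libraries the counts of calls (adjusted p under 0.05, higher and lower in KO) were 1 and 1 of the 40 genes, 216 and 451 of all tested genes, and 1 and 3 of the 128 further pathway genes. Sdc1 and Lman1 stayed called with TMM factors set without immunoglobulin and dominant genes, without a filter on low counts, with a stricter filter, with DESeq2's Wald test, with limma-voom and without either WT library. With DESeq2's size factors Lman1 missed the threshold (adjusted p = 0.0518), which left 0 lower among the 40 genes and 0 higher among the further genes. With library totals alone there were 0 calls of any kind by edgeR, and at an unadjusted p under 0.05 the counts were 4 and 1, 1472 and 1505, and 11 and 7; the adjusted p was 0.176 for Sdc1 and 0.492 for Lman1. Without a filter 2 of the 40 were lower, Fkbp11 being added (adjusted p = 0.0272), and the other counts were 542 and 1188, and 2 and 7. DESeq2's Wald test called 6 and 6, 1325 and 2430, and 11 and 26, and limma-voom called 5 of the further genes lower. The cause of these differences was not tested.

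Replicate numbers are shared between the groups, but the labels do not say what a number stands for, and the deviations of the libraries numbered 1 correlated at −0.111 across 20695 genes, so the numbers were not taken as pairs. With the replicate block edgeR made 0 calls in every count (unadjusted p under 0.05: 5 and 3, 1866 and 2734, 11 and 26). With crossed numbers in the block it called 0 and 0 of the 40 genes (unadjusted 5 and 4), 202 and 643 of all genes, and 1 and 2 of the further genes.

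Leaving out each library in turn gave 0 to 17 higher and 0 to 18 lower among the 40 genes, 0 to 6887 and 0 to 6922 among all genes, and 0 to 30 and 0 to 78 among the further genes. The counts were 0 without KO replicate 1 and without KO replicate 2, where the lone KO library is assumed to vary like the WT libraries (unadjusted p under 0.05: 1 and 1 of the 40 genes each time, 732 and 1318, then 743 and 1342 of all genes, and 7 and 8, then 6 and 8 of the further genes). By library totals the counts without WT replicate 1 were 20 and 8, 5883 and 4221, and 40 and 41, and without WT replicate 2 they were 29 and 6, 15091 and 2608, and 90 and 19.

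The log2 fold change took the other sign under some settings. Among the fits that leave out 1 library, Ern1 ran between −0.996 and 0.405, Atf6 between −0.178 and 0.551, Hspa5 between −0.044 and 0.544, Hyou1 between −0.047 and 0.922, Manf between −0.151 and 0.663, Calr between −0.429 and 0.623, Txndc11 between −0.05 and 0.002, Derl2 between −0.145 and 0.138, Derl3 between −2.709 and 0.888, Edem2 between −0.149 and 0.792, Sel1l between −1.408 and 0.158, and Ssr1 between −0.511 and 0.065. With library totals alone, which moved the median of all genes by 0.59, the values were 0.141 for Xbp1, 0.431 for Ern1, 0.299 for Atf4, 0.477 for Pdia3, 0.141 for Txndc5, 0.567 for Txndc11, 0.651 for Derl2, 0.094 for Sel1l, 0.133 for Sec11c, 0.472 for Ssr1 and 0.27 for Ssr4. By library totals without WT replicate 1 they were 0.531 for Ern1, 0.005 for Pdia3, 0.088 for Txndc11, 0.263 for Derl2, 1.013 for Derl3, 0.283 for Sel1l, 0.005 for Sec11c, 0.19 for Ssr1 and 0.123 for Ssr4. By library totals without WT replicate 2 they were 0.552 for Xbp1, 0.344 for Ern1, 0.853 for Atf4, 1.194 for Pdia3, 0.722 for Txndc5, 1.301 for Txndc11, 1.194 for Derl2, 0.182 for Herpud1, 0.113 for Sec61a1, 0.223 for Sec61b, 0.279 for Sec11c, 0.829 for Ssr1 and 0.44 for Ssr4. Values near 0 with all 4 libraries also changed sign elsewhere: Calr was −0.006 with DESeq2's size factors and with its Wald test, Txndc11 0.012 and Derl2 0.044 without a filter, and Derl2 was 0.013 with limma-voom and 0.002 with either replicate block.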
